A study of Mus musculus with 8 samples.

Results

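Semaphorins, plexins, neuropilins, ephrins and Eph receptors were followed in mouse sensory ganglia 3 days after a crush of 1 sciatic nerve. The members were the rows of the deposited gene table whose symbols start with Sema3 to Sema7, Plxna to Plxnd, Efna, Efnb, Epha or Ephb, or are Nrp1 or Nrp2, which gave 54 of 24060 rows. They were 20 semaphorins, 9 plexins, 2 neuropilins, 8 ephrins, 14 Eph receptors and 1 antisense RNA, Plxna4os1. The naive group held 4 libraries of dissociated dorsal root ganglia from levels L4 to L6, and the injury group held 4 such libraries from ganglia of the crushed nerve. The labels give no strain, sex, age or genotype, and the design text says that both kinds of ganglia were taken from each of 4 mice, so the naive ganglia came from animals that had also been operated on. Libraries were made with the QuantSeq REV kit, which reads transcripts from the polyadenylated 3′ end.

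Semaphorins are secreted, membrane-spanning or lipid-anchored proteins that steer axons, mostly by repelling them, through plexin receptors. The secreted Sema3 proteins mostly need a neuropilin as the binding subunit, whereas the membrane-bound classes bind plexins directly. Ephrins are cell-surface ligands of the Eph receptor tyrosine kinases, and both partners can signal into their own cell on contact. Both systems shape the growth of sensory axons in development, and many members are still transcribed in adult sensory neurons and in the glia, vessels and connective tissue around them.

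The gene table held 16539644 to 28950551 counts per library, of which guidance genes took 0.14% to 0.156%. Levels are given in CPM, the counts relative to library size times its TMM factor. As each transcript gives about 1 read at its 3′ end, they were not divided by gene length. Neuronal markers fixed for the tissue label were abundant, with a summed level of 20090 to 20930 CPM in naive and 20320 to 25330 CPM in injury libraries. Tubb3, a neuronal tubulin, rose and Snap25 and Pou4f1 fell among 12 tested (25%, against 17.8% of all genes tested). With the mouse as a block 2 rose and 4 fell, beside 1393 and 1240 of all 13770 genes. Fewer cells of a type and less RNA per cell cannot be told apart in such tissue libraries.

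Injured ganglia carried more RNA of a few semaphorins and of 1 plexin, and slightly less of several others. By edgeR's quasi-likelihood test with Benjamini-Hochberg adjustment over all 13770 genes tested, 12 of the 46 guidance genes that passed the low-count filter had an adjusted p under 0.05 (26.1%), against 17.8% of all genes tested. Of the 46, 5 rose, a share close to the 10.1% of all genes, and 7 fell, beside 7.75%. Without single libraries 4 to 6 members were higher and 0 to 6 lower. Over all genes these fits gave 1049 to 1356 higher and 689 to 1082 lower, beside 1387 and 1067 with all libraries. Semaphorins gave 7 of the 12, plexins 4 and ephrins 1, and no neuropilin or Eph receptor passed. The rises were Sema6a, Plxna4, Sema3c, Sema4f and Sema4a, with 1.52-fold to 11.6-fold higher levels. The falls were Sema3e, Sema3f, Sema7a, Plxna2, Plxnc1, Plxnd1 and Efnb1, each 19.6% to 35.5% lower. Over the tested members the median log2 fold change was -0.03 and the median of its size 0.29, beside -0.02 and 0.25 over all genes. The groups did not overlap for 6 members with injury above (13%, against 12.6% of all genes) and for 8 with injury below (17.4%, against 10.8%).

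**Figure D1:**
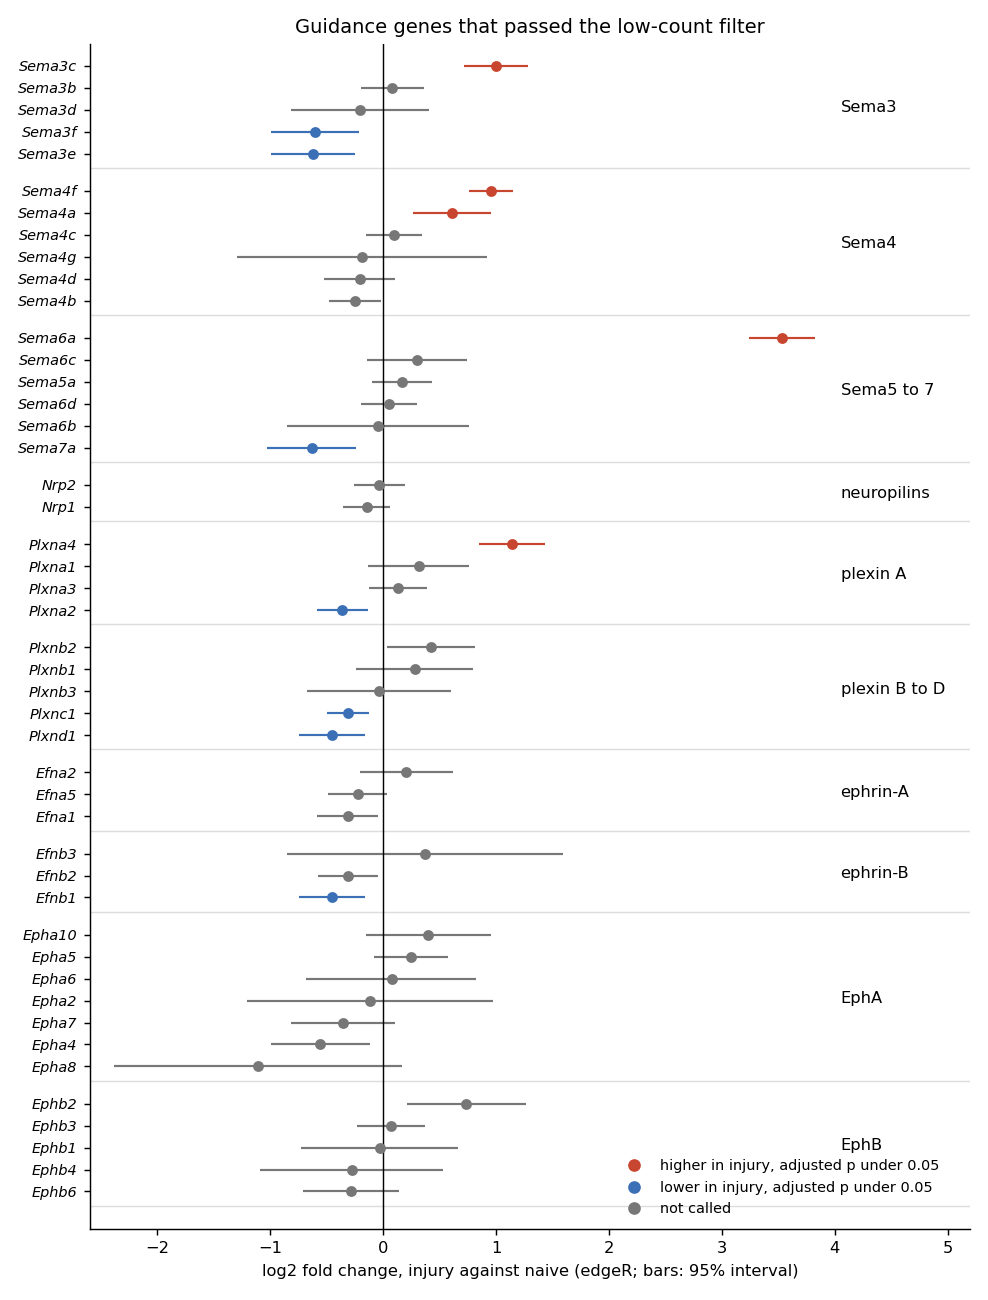
Log2 fold change of injury against naive (x axis) for the 46 guidance genes that passed the low-count filter, by class; points are edgeR estimates and bars their 95% intervals, red for genes called higher, blue for genes called lower and grey for the rest. Sema6a, at 3.53, stands apart from the other called genes, which lie between -0.63 and 1.14.

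The semaphorin that changed most was Sema6a, a membrane-spanning ligand of plexins A2 and A4 that also signals into the cell that carries it. In naive libraries 1 to 4 it measured 16.4, 15.1, 17.2 and 11 CPM, and in injury libraries 1 to 4 it measured 168.6, 186.3, 157.6 and 176.4 CPM. Every injury library therefore lay far above every naive one. Sema6a (GRCm38, chromosome 18, 47235598 to 47368870, minus strand) went from 14.9 ± 2.74 to 172.2 ± 12.1 CPM (SD, n = 4 each), an 11.6-fold rise (95% interval 9.43 to 14.2; log2 fold change 3.53, SE 0.14, adjusted p = 5.45e-09 by edgeR). By p it ranked 10 and by size of rise 76 among all 13770 genes tested. It also went from rank 11 to rank 1 among the 20 semaphorins, from 2.84% ± 0.611 to 23.4% ± 1.74 of their summed CPM.

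Sema4f, a membrane-spanning semaphorin known from neurons and Schwann cells, was the most abundant Sema4 gene. Its level was 77.7, 80.4, 73.2 and 87.3 CPM in the naive libraries and 143.1, 174.4, 150.5 and 150.0 CPM in the injury libraries. All injury values were above all naive ones, and the means were 79.6 ± 5.93 and 154.5 ± 13.7 CPM (log2 fold change 0.96, SE 0.09, adjusted p = 1.50e-05 by edgeR). The gene lies on chromosome 6, 82911885 to 82939769, minus strand. Its share of semaphorin CPM went from 15.1% ± 0.773 to 21% ± 1.66.

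Sema3c codes for a secreted semaphorin that binds neuropilins and plexin D1. The naive libraries held 8.44, 7.17, 8.80 and 8.25 CPM of it and the injury libraries 17.3, 15.5, 15.8 and 16.7 CPM. The groups did not overlap and differed 2.00-fold with a 95% interval of 1.64 to 2.44 (log2 fold change 1.00, SE 0.13, adjusted p = 2.04e-04 by edgeR). Sema3c lies on chromosome 5, 17574281 to 17730268, plus strand.

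Sema4a, which acts through plexins and is also known from immune cells, measured 12.6, 17, 14.5 and 16.4 CPM in naive and 23.9, 19.6, 29.3 and 19.4 CPM in injury libraries. The groups did not overlap, but injury 3 alone was above 25 CPM (log2 fold change 0.61, SE 0.16, adjusted p = 0.0192 by edgeR). Without naive 1 or naive 3 Sema4a was not called (adjusted p = 0.0609 and 0.06). The gene lies on chromosome 3, 88435959 to 88461182, minus strand. Macrophage markers rose beside it: 7 of the 9 found in the table passed the test (77.8%, against 17.8% of all genes). The summed level of the 9 was 11.5 to 23.1 CPM in naive and 38.96 to 60.04 CPM in injury libraries. Cx3cr1, a microglia and macrophage receptor, had a log2 fold change of 2.30, while Cd68 and Itgam did not pass (0.32 and -0.47); calls of C1qb, Csf1r and Mrc1 were lost in some fits that left libraries out (adjusted p up to 0.137, 0.466 and 0.0976). The part of these cells in the rises of Sema4a and the other semaphorins was not tested.

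Sema7a, a lipid-anchored semaphorin that binds plexin C1 and integrin β1, was the most abundant semaphorin in naive ganglia and fell. Naive libraries held 77.8, 97.0, 102.5 and 114.0 CPM and injury libraries 64.95, 45.3, 87.7 and 54.6 CPM. The groups overlap, since injury 3 was above naive 1. The means were 97.8 ± 15.1 and 63.1 ± 18.3 CPM (log2 fold change -0.63, SE 0.18, adjusted p = 0.0292 by edgeR). Leaving out naive 2, naive 3, naive 4, injury 2 or injury 4 ended the call, at adjusted p-values between 0.0585 and 0.0884. Its share of semaphorin CPM went from 18.5% ± 2.47 to 8.58% ± 2.41, from rank 1 to rank 4. Sema7a lies on chromosome 9, 57940112 to 57962865, plus strand.

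Sema3e is a secreted ligand that binds plexin D1 without a neuropilin. It measured 16.0, 14.9, 14.1 and 16.8 CPM in naive and 11.6, 7.12, 9.61 and 12.1 CPM in injury libraries, with every injury value below every naive one (log2 fold change -0.62, SE 0.17, adjusted p = 0.0261 by edgeR). Without naive 1, naive 4 or injury 2 it was not called (adjusted p = 0.0621, 0.0706 and 0.0551), nor without naive 2, injury 2 and injury 3 together (0.119). Sema3e lies on chromosome 5, 14025276 to 14256689, plus strand.

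Sema3f, a secreted ligand that acts mainly through neuropilin 2, gave 11.97, 12.2, 13.8 and 14.7 CPM in naive libraries and 7.43, 7.69, 11.98 and 7.601 CPM in injury libraries. Injury 1, 2 and 4 lay close together and injury 3 lay at the edge of the naive group. The log2 fold change was -0.60 (SE 0.18, adjusted p = 0.0357 by edgeR), and the call was lost without any 1 of naive 1 to 4 or of injury 1, 2 and 4, with adjusted p from 0.0516 to 0.0973. Sema3f lies on chromosome 9, 107681500 to 107710475, minus strand.

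The other 10 semaphorins tested did not pass. Sema3b was the most abundant Sema3 gene, with 29.5, 30.6, 32.7 and 25.3 CPM in naive and 28.9, 31.1, 37.4 and 27.4 CPM in injury libraries, so the groups overlapped throughout (log2 fold change 0.08, 95% interval -0.20 to 0.36). The uncalled genes of smallest p in their classes were Sema4b, with 46.9 ± 5.50 and 39.5 ± 2.18 CPM (-0.25, adjusted p = 0.133 by edgeR), Sema6c (0.30, 0.348) and Sema3d (-0.20, 0.667). Sema3a, the classic collapsin that acts through neuropilin 1, was near the floor: 42 counts in all 8 libraries together. Sema3g held 46 and Sema5b 34 counts, and these 3 genes did not pass the filter. A count of 0 allows up to 0.104 to 0.181 CPM, depending on the library. The summed CPM of all 20 semaphorins was 504.1 to 549.8 in naive and 719.4 to 749.5 in injury libraries.

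**Figure D2:**
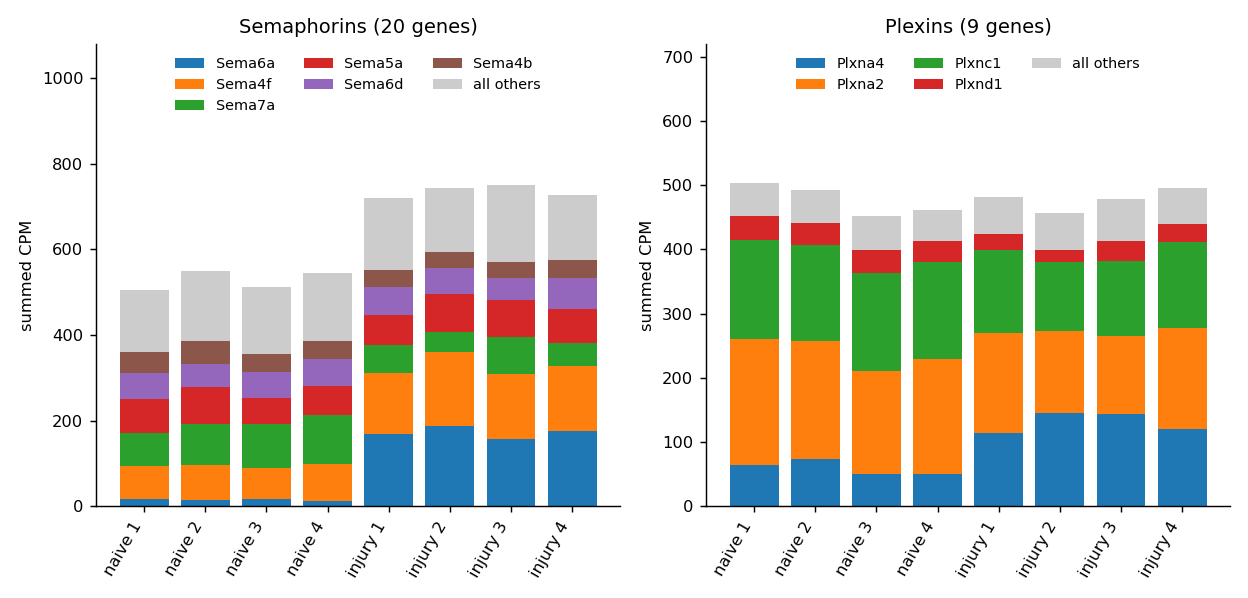
Stacked bars of the summed CPM (y axis) of all semaphorins (left) and all plexins (right) in each of the 8 libraries, with the most abundant genes coloured and the others in grey. The semaphorin bars are taller in injury, with Sema6a at 21% to 25% of them, whereas the plexin bars are about level and the Plxna4 part grows.

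Neuropilins, the ligand-binding subunits for Sema3 proteins, gave 0 calls of 2 by edgeR, DESeq2 and limma-voom, and 0 at an unadjusted p under 0.05. Nrp1, the binding subunit for Sema3a, was the more abundant one, with 102.1, 102.8, 104.0 and 110.4 CPM in naive and 102.5, 86.5, 83.5 and 106.2 CPM in injury libraries. Injury 2 and injury 3 were lower and the other injury libraries lay within or near the naive range (log2 fold change -0.15, 95% interval -0.35 to 0.06, adjusted p = 0.32 by edgeR). Nrp2, named here to complete the pair, had a log2 fold change of -0.03 with an interval of -0.26 to 0.19.

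Of the 9 plexins, the signalling receptors of semaphorins, 1 rose and 3 fell, beside 10.1% and 7.75% of all genes. Plxna4, which codes for a receptor of Sema6a and, with neuropilin 1, of Sema3a, measured 64.6, 73.0, 49.5 and 50.6 CPM in naive and 114.4, 145.2, 143.8 and 120.6 CPM in injury libraries. No injury library came near the naive range. The means were 59.4 ± 11.3 and 131 ± 15.8 CPM, a 2.21-fold rise (95% interval 1.80 to 2.70; log2 fold change 1.14, SE 0.14, adjusted p = 1.01e-04 by edgeR). Plxna4 lies on chromosome 6, 32144268 to 32588192, minus strand. Its antisense RNA Plxna4os1 held 9 counts in all and did not pass the filter; the kit keeps the strand, but no source used here says whether the counting did.

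Plxna2, the other receptor of Sema6a, was the most abundant plexin in both groups and fell. It gave 196.6, 184.2, 160.8 and 178.9 CPM in naive and 155.5, 127.8, 121.2 and 156.4 CPM in injury libraries, so the nearest values of the groups were only a few CPM apart. The means were 180.1 ± 14.9 and 140.2 ± 18.4 CPM (log2 fold change -0.36, SE 0.10, adjusted p = 0.0288 by edgeR). Leaving out naive 1, naive 2, naive 4, injury 2 or injury 3 ended the call, at adjusted p-values between 0.0536 and 0.0889. The 95% interval of Plxna4 (0.85 to 1.44) and that of Plxna2 (-0.58 to -0.14) do not overlap. Plxna2 lies on chromosome 1, 194618218 to 194816869, plus strand. The Plxna2 share of plexin CPM went from 37.7% ± 1.62 to 29.3% ± 3.24 and the Plxna4 share from 12.4% ± 1.85 to 27.5% ± 4.04, while the summed plexin CPM was 452.6 to 503 in naive and 457.2 to 495.3 in injury libraries.

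Plxnc1, the plexin receptor of Sema7a, fell as its ligand did. It measured 154.0, 150.1, 152.2 and 150.5 CPM in naive and 129.3, 107.1, 116.7 and 135.1 CPM in injury libraries. The naive libraries were nearly equal, and all injury values were below them (log2 fold change -0.31, SE 0.09, adjusted p = 0.0236 by edgeR). Its call was lost without naive 1, naive 3, naive 4 or injury 2, with adjusted p from 0.0527 to 0.0665. Plxnc1 lies on chromosome 10, 94790866 to 94944835, minus strand.

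Plxnd1, the plexin bound by Sema3e, gave 37.3, 33.9, 36.0 and 33.1 CPM in naive and 25.3, 19.7, 31.0 and 26.8 CPM in injury libraries. Again no injury value reached the naive range (log2 fold change -0.45, SE 0.13, adjusted p = 0.0360 by edgeR). The call was lost without any 1 of naive 1 to 4, injury 1 or injury 2, with adjusted p from 0.0594 to 0.0936. Plxnd1, known above all from vessels, lies on chromosome 6, 115954811 to 115995005, minus strand. None of 7 endothelial and 5 mural cell markers tested passed by edgeR, DESeq2 or limma-voom, and 0 had an unadjusted p under 0.05 by edgeR. The endothelial and mural markers had median log2 fold changes of -0.05 and -0.43, and every mural one was negative. Their summed levels were 190.2 to 237.3 and 53.4 to 67.2 CPM in naive and 194.8 to 234.9 and 41.95 to 55.2 CPM in injury libraries, and the part of these cells in the fall of Plxnd1 was not tested.

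The 5 other plexins did not pass. Plxnb2, a receptor of Sema4 proteins, had all 4 injury libraries above the naive ones, with 6.54 ± 1.27 and 8.75 ± 0.702 CPM (log2 fold change 0.42, adjusted p = 0.129 by edgeR). Plxna1 had a log2 fold change of 0.31 with an interval of -0.14 to 0.76. Plxna3, Plxnb1 and Plxnb3 lay between -0.03 and 0.28.

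Genes whose transcripts end in AT-rich sequence were low in injury 2 and injury 3, their median log2 distance from the injury mean being -0.16 and -0.18 over 1323 genes under 25% GC in the last 100 bases, against 0.15 and 0.17 in injury 1 and injury 4. Plxna2 and Plxnc1, at 25% and 26% GC and so just outside that set, were also lowest in injury 2 and injury 3. Without naive 2, injury 2 and injury 3 their log2 fold changes were -0.20 and -0.21, and neither was called (adjusted p = 0.134 and 0.0683 by edgeR). Naive 2 had the lowest median of the naive libraries, -0.06 from the naive mean. As injury 2 and injury 3 were the lowest injury libraries of both genes, leaving these out shrinks both falls whatever the reason. The fit also holds fewer libraries, so it cannot show what part 3′ end composition had. Of the other tested members at 25% to 27% GC, Sema5a and Sema4c were highest in injury 2 and injury 3, and Sema4d and Epha2 lowest. Nrp1, at 48% GC, was lowest there too. The 6 tested members under 25% GC differed among themselves. Plxna4, at 20% GC, was highest in injury 2 and injury 3, and its call held without them. Efna5 was highest among injury libraries in injury 3, Efnb1 was lowest in injury 3 and injury 4, and Sema3d was lowest in injury 2 and injury 3, while Epha5 was low in injury 3 alone and Nrp2 was nearly level. The part of 3′ end composition in the falls of Plxna2 and Plxnc1 was not tested.

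**Figure D3:**
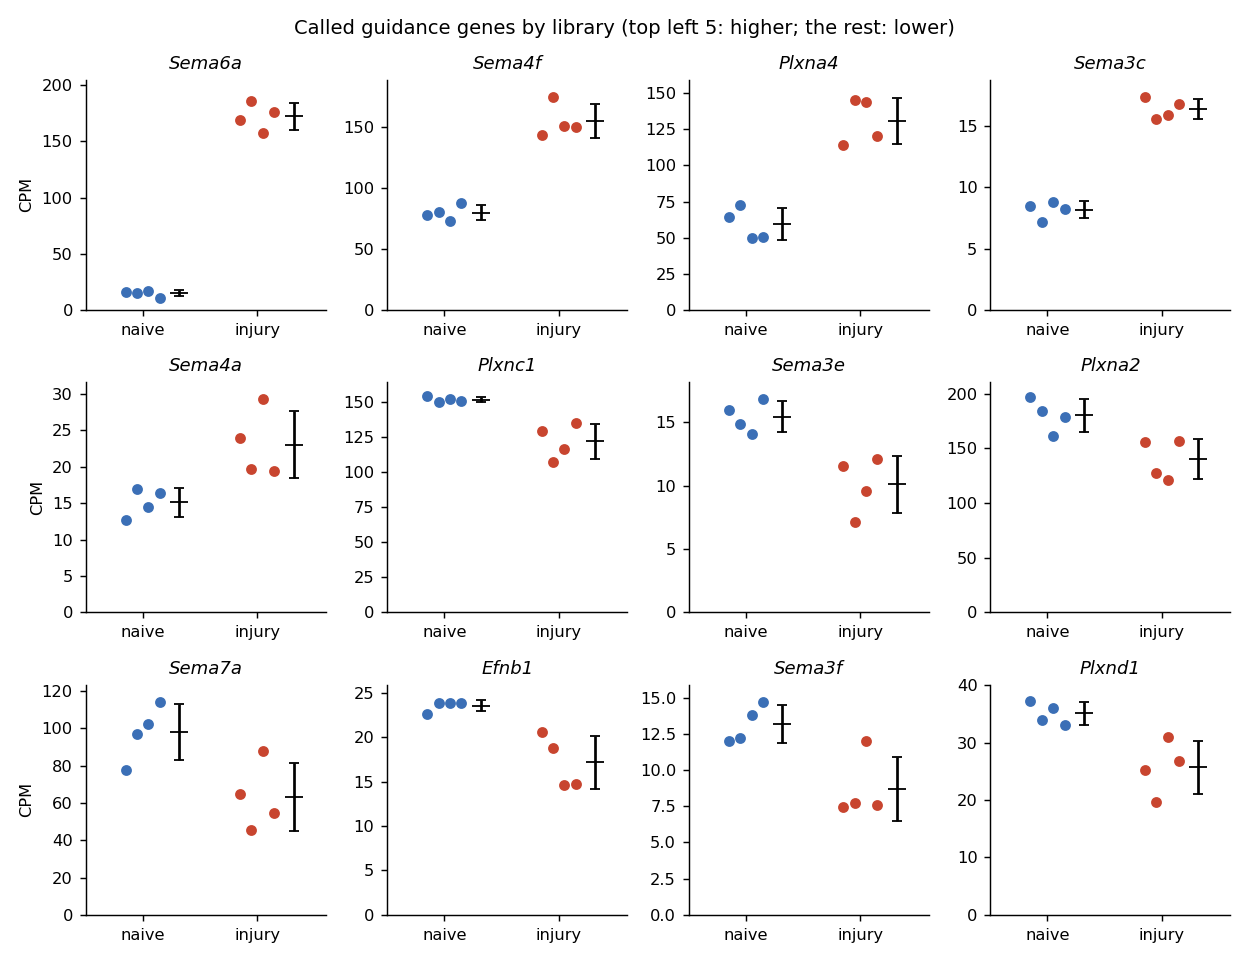
CPM (y axis, from 0) of the 12 called guidance genes in each library, naive in blue and injury in red, with the mean and SD of the 4 libraries as a black cross bar. Sema6a, Sema4f, Plxna4 and Sema3c show wide gaps between the groups, while Sema7a and Sema3f overlap.

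The starts of 4 of these genes are shown because they stand for both directions: Sema3c and Sema4f, the called rises of largest fold that have an entry, and Sema7a and its receptor gene Plxnc1, which fell together. RefSeq promoter entries on GRCm38.p6, from 250 bases before to 50 bases after the start, were found for 47 of the 54 members and 9 of the 12 called ones, with none for Sema6a, Plxna4 and Sema3f. Capitals mark GC boxes, with the letters GGGCGG, and CCAAT boxes, searched on both strands, so that a box on the opposite strand appears as its reverse complement. The lines give Sema3c at chr5:17574566-17574865 (plus strand), Sema4f at chr6:82939720-82940019 (minus strand), Sema7a at chr9:57939862-57940161 (plus strand) and Plxnc1 at chr10:94944796-94945095 (minus strand).
Sema3c: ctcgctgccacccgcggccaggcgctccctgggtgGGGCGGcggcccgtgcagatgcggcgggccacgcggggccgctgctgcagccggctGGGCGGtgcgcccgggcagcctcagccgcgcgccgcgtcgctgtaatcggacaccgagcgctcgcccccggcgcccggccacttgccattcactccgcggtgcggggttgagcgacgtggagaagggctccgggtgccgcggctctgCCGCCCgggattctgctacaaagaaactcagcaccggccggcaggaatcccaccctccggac
Sema4f: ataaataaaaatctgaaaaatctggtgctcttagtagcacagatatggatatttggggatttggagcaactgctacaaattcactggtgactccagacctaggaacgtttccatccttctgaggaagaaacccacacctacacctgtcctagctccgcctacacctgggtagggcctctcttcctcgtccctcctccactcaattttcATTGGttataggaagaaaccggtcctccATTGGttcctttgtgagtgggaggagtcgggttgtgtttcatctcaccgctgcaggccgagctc
Sema7a: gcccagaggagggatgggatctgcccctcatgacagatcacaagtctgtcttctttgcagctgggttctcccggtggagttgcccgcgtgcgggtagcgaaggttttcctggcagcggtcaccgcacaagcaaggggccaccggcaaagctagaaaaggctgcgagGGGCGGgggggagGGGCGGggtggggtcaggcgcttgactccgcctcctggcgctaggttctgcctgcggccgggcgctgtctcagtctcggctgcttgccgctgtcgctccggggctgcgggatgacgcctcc
Plxnc1: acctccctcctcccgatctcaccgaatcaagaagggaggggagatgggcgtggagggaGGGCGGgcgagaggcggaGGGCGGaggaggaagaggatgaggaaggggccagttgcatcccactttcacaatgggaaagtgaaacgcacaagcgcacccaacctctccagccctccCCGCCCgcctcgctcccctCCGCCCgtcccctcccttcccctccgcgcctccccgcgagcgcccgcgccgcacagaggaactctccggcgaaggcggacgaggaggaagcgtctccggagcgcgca

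The Sema3c window was 75.7% GC with 3 GC boxes, that of Sema7a 67.3% with 2 and that of Plxnc1 69% with 4. Sema4f differed from these, at 48.7% GC with 2 CCAAT boxes and no GC box, beside a median of 52.7% GC over all promoters. GC boxes stood in windows of 37 of the 47 members with an entry and of 7 of the 9 called ones, beside 35.7% of all 32851 promoters, and CCAAT boxes in 18 and 3, beside 37.4%. A member with several starts, such as Sema4a with 4, counts once if any of them holds the letters, whereas the shares of all promoters count each start. None of these 9 held the letters of an AP-1 site (TGANTCA, 7.81% of all promoters), a cAMP response element (TGACGTCA, 1.79%), an ATF4-C/EBP element (TGATGNAA, 3.97%) or a TATA box (TATAAA, 13.6%) in the window. A STAT motif (TTCNNNGAA, 8.3%) and an E-box (CACGTG, 7.15%) each stood in 1. These matches describe letters only.

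Of 6 ephrins tested, 1 fell and none rose (16.7% called, against 17.8% of all genes). Efnb1, a membrane-spanning ligand of EphB receptors, gave 22.6, 23.8, 23.8 and 23.9 CPM in naive and 20.5, 18.7, 14.6 and 14.7 CPM in injury libraries. All injury values were below the naive ones, and their spread was wider (log2 fold change -0.45, SE 0.13, adjusted p = 0.0349 by edgeR). The call was lost without any 1 of naive 1 to 4, injury 3 or injury 4 (adjusted p from 0.0619 to 0.0879), and with naive 2, injury 2 and injury 3 all left out (0.0957). Efnb1 lies on chromosome X, 99136130 to 99148991, plus strand; its 3′ end is 23% GC.

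Efna5, a lipid-anchored ligand of EphA receptors, was the most abundant ephrin, with 59.7, 60.6, 52.2 and 55.7 CPM in naive and 48.1, 39.0, 57.6 and 50.4 CPM in injury libraries. Injury 3 lay inside the naive range and the other injury libraries below it (log2 fold change -0.23, 95% interval -0.49 to 0.03, adjusted p = 0.222 by edgeR). Efnb2, the B ephrin of arteries among other cells, gave 19.98, 21.1, 24.7 and 25.9 CPM in naive and 19.4, 18.8, 17.0 and 18.6 CPM in injury libraries. These groups did not overlap, but the difference did not pass (-0.31, adjusted p = 0.101 by edgeR). Efna1 had the same size of change (-0.31, adjusted p = 0.106) and passed only without injury 1 (0.0479). The summed CPM of the 8 ephrins was 151.2 to 165.8 in naive and 122.6 to 141.9 in injury libraries, without overlap. Efna4 held 41 counts in all libraries together, and Efna3 was at 0 in every library.

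Against 17.8% of all genes, Eph receptors, the tyrosine kinases that bind ephrins, had 0 of 12 tested called by edgeR. At an unadjusted p under 0.05 they numbered 2, Ephb2 and Epha4. Limma-voom called Ephb2 higher, beside 1421 of 13770 genes. DESeq2 called Ephb2 and Epha3 higher, beside 1666 of 15610 genes, and Epha3 is not among the 12. Epha5, the most abundant Eph gene, gave 16.4, 21.4, 18.1 and 14.4 CPM in naive and 23.0, 22.1, 16.9 and 21.2 CPM in injury libraries, with overlap (log2 fold change 0.24, interval -0.08 to 0.57). Ephb3, the most abundant EphB gene, gave 17.4, 15.4, 17.2 and 13.0 CPM in naive and 14.9, 18.3, 17.8 and 15.1 CPM in injury libraries, also with overlap (0.07, interval -0.23 to 0.37).

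Ephb2, which binds B ephrins, was nearest to a call. It gave 4.87, 3.87, 2.79 and 3.19 CPM in naive and 5.35, 6.59, 7.83 and 4.72 CPM in injury libraries, overlapping only through naive 1 and injury 4 (log2 fold change 0.74, SE 0.24, adjusted p = 0.0547 by edgeR). DESeq2 and limma-voom called it (adjusted p = 0.0343 and 0.0492), as did edgeR without naive 1 or without injury 4 (0.0354 and 0.0398). Epha4, a receptor for both A and B ephrins, had lower values in all 4 injury libraries, with 8.63 ± 1.47 and 5.88 ± 1.24 CPM (-0.56, adjusted p = 0.0789 by edgeR). Epha3, a receptor of A ephrins, did not pass the low-count filter: its counts were 0, 4, 2 and 0 in naive and 7, 16, 13 and 28 in injury libraries. DESeq2, which tested it, gave a log2 fold change of 3.44 (adjusted p = 0.00743), and edgeR without a filter gave 3.33 (0.0433). Where leaving out 1 library let it pass the filter, edgeR called it without naive 2 or injury 1 (adjusted p = 0.0255 and 0.0233) but not without naive 1, naive 3 or naive 4 (0.0692, 0.0616 and 0.07). Epha1 was at 0 in every library. The summed CPM of the 14 Eph genes was 63.8 to 78.6 in naive and 72.9 to 78.7 in injury libraries.

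**Figure D4:**
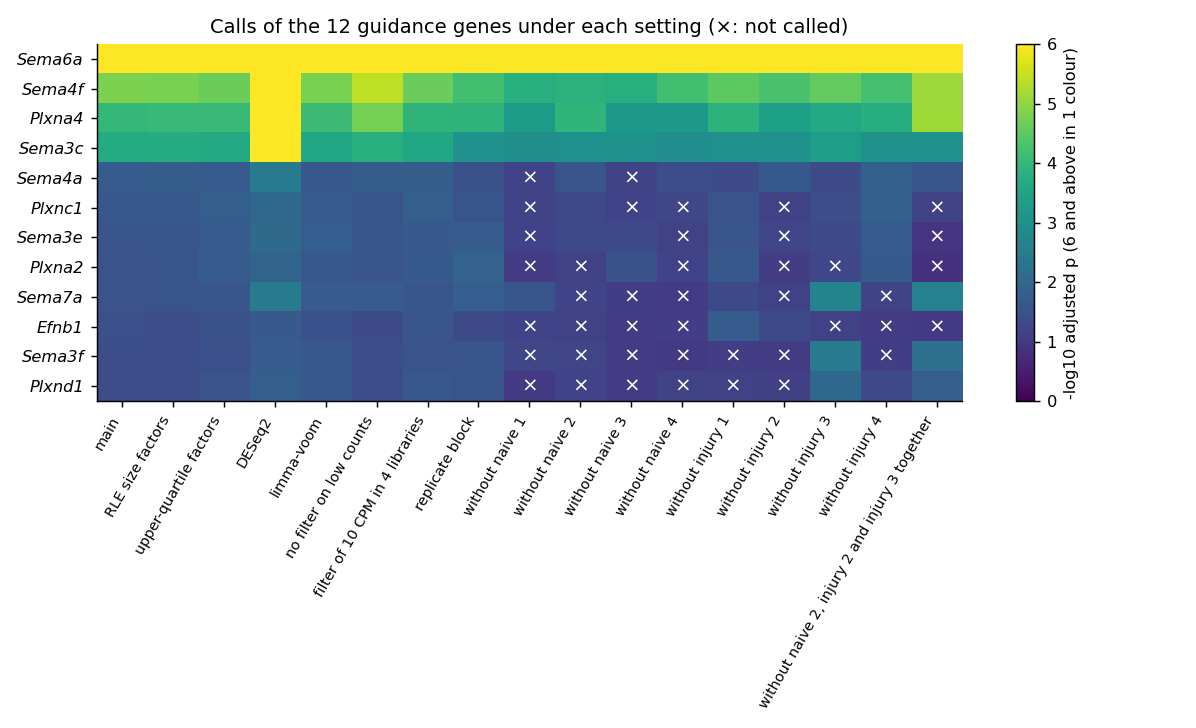
Minus log10 of the adjusted p (colour) of each of the 12 called genes (rows) under the main test and 16 alternatives (columns), with a cross where the gene was not called. Sema6a, Sema4f, Plxna4 and Sema3c have no cross, and every cross lies in a column that leaves out libraries.

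Use of alternative poly(A) sites, the subject of the series, could be tested for 6 members. Epha10, Ephb3 and Sema4g were tested through an intron window in a repeat beside a site near the annotated end. Ephb2 was tested through intron windows in repeats alone. The deposited window table, GRCm38, held sites outside repeats for 10 members, each of them on the plus strand, although 27 members lie on either strand. The strand of a window was inferred from the order of the windows. Minus-strand members such as Sema6a and Plxna4 had no site outside repeats to test. No member was called (0 of 6 by edgeR's diffSpliceDGE, with 1 at an unadjusted p under 0.05), against 12.5% of the 2404 genes tested. Without windows in repeats 2 members remained, Plxna2 and Plxnb1, with 0 called and 0 at an unadjusted p under 0.05, against 0.174% of 1151 genes. Limma-voom called 1 of the 6 members, beside 464 of the 2404 genes. This member was Epha10, through a window in an intron that carries a repeat class. The share of this window went from 46.4% ± 15.1 to 72.1% ± 6.34 of the counts of the 2 Epha10 sites (adjusted p = 0.0206 by limma-voom, and 0.432 by edgeR).

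Plxna2 had 4 tested sites in its last exon, 4352, 2442, 1919 and 39 bases before the annotated end. Its windows with smaller shares of the counts were left out. The site nearest to the end took 55.7, 54.6, 56.9 and 55.5% of the counts of these 4 sites in naive and 49.7, 44.6, 46.9 and 53.8% in injury libraries. All injury values were below all naive ones, while the site farthest from the end went from 17.5% ± 1.36 to 21.3% ± 2.12. The other tested sites went from 16.4% ± 2.66 to 19.3% ± 1.99 and from 10.4% ± 1.39 to 10.7% ± 2.02. The difference in site use did not pass the test (adjusted p = 0.995 by edgeR, 0.123 by limma-voom).

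**Figure D5:**
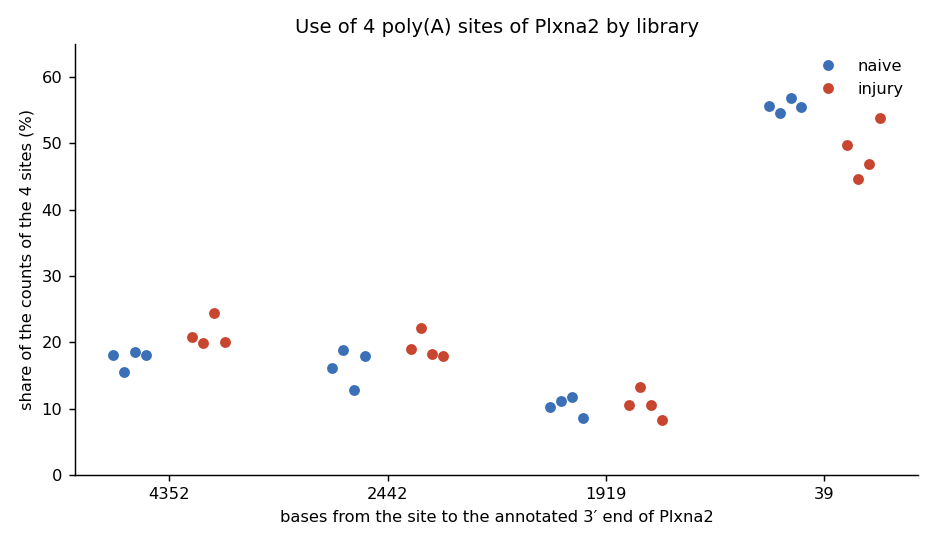
Share of the counts of 4 poly(A) sites of Plxna2 (y axis, percent) in each library, by the number of bases from the site to the annotated 3′ end (x axis), naive in blue and injury in red. The site 39 bases from the end lies between 54.6% and 56.9% in naive and between 44.6% and 53.8% in injury libraries.

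Among genes known to act with semaphorin receptors, 8 of 28 tested rose and 2 fell (35.7%, against 17.8% of all genes). This list, like the others below, was chosen with earlier results of these data known, so its share is descriptive only. The adhesion molecule Chl1, a neuropilin partner of the L1 family, measured 217.8 ± 34.9 CPM in naive and 793.8 ± 90.8 CPM in injury libraries, a log2 fold change of 1.86 (adjusted p = 5.46e-07 by edgeR). Rnd1, a GTPase that binds the plexin cytoplasmic domain, had 1.62 (SE 0.18) and Itgb1, the integrin subunit that binds Sema7a, had 0.85 (SE 0.09). The collapsin response mediators Dpysl5 and Crmp1 rose by 0.75 and 0.59 and the GTPase gene Rac1 by 0.40. Farp1 and Cd72, a receptor of Sema4d on B cells, also rose, and Dpysl2 and Arhgef11 fell. These 4 calls were lost in several fits without single libraries (without naive 1 or 3 or injury 2 or 3 in each case, and others), with adjusted p up to 0.183, 0.361, 0.158 and 0.153, and that of Cd72 with the mouse as a block (0.0622). Limma-voom did not call Farp1, Cd72 or Arhgef11 and so gave 6 higher and 1 lower in this list, and DESeq2 did not call Arhgef11. Macrophage markers, given above, rose beside Cd72.

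In the list of genes acting with ephrins and Eph receptors, 3 of 23 rose and 1 fell (17.4%, close to the 17.8% of all genes). With the mouse as a block 3 rose and 2 fell. Arhgef15, an exchange factor bound by EphB2, measured 6.82 ± 1.47 CPM in naive and 19.1 ± 2.67 CPM in injury libraries, a log2 fold change of 1.48 (adjusted p = 9.87e-05 by edgeR). The adaptor gene Nck2 had 0.64 and was not called without naive 2, injury 2 and injury 3 together (adjusted p = 0.133). Chn1, a Rac-inactivating protein downstream of EphA4, fell by 0.35 on the log2 scale; leaving out naive 2, naive 3, naive 4 or injury 2, or the 3 libraries together, ended its call (0.0909 at most).

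Other guidance systems gave 2 higher and 3 lower of 18 tested (27.8%, against 17.8% of all genes). Draxin, a secreted repellent that binds the netrin receptor Dcc, measured 1.93 ± 0.363 CPM in naive and 12.7 ± 1.99 CPM in injury libraries, a log2 fold change of 2.72 (adjusted p = 2.01e-06 by edgeR). Slit1, a ligand of Robo receptors, rose (0.56) and the receptor gene Robo2 fell (-0.46), as did the lipid-anchored netrin-G1 gene Ntng1 (-0.50) and the adhesion molecule gene Dscam (-0.61). The call of Slit1 ended on leaving out naive 1, naive 3, naive 4, injury 2 or injury 3, at an adjusted p of at most 0.0832. That of Dscam ended on leaving out naive 1, naive 2, injury 1 or injury 2, and the 3 libraries together, at 0.114 at most.

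Markers of other cells were read beside the 17.8% called over all genes. In the satellite glia list Glul rose (1 of 8 tested, 12.5%). In the Schwann cell list Mal and Gldn rose (2 of 9, 22.2%), Gldn with a log2 fold change of 1.82. None of 6 fibroblast genes passed by edgeR, DESeq2 or limma-voom, with 0 at an unadjusted p under 0.05. Of 5 neutrophil genes tested Ltf fell, and with the mouse as a block all 5 did. Their summed level, with the 3 lymphocyte genes of the list, was 365.1 to 1262 CPM in naive and 130.1 to 456.4 CPM in injury libraries. Leaving out naive 2, naive 3, naive 4, injury 1 or injury 3 ended the call of Mal, at an adjusted p of at most 0.0848, and leaving out naive 3, naive 4, injury 1 or injury 2 ended that of Ltf, at 0.144 at most. The part of these cells in the falls of guidance genes was not tested.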

How the data were processed

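Deposited counts were used as given. The tools were bcl2fastq 2.17, STAR and HTSeq on GRCm38/mm10, per the submitters' processing notes, with no version of STAR or HTSeq stated there. The authors deposited whole-number read counts per gene, not normalized, and counts per genomic window. Dates stand where the gene name should be in 27 rows (0.133% to 0.164% of counts), which stayed in.

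Genes were tested with edgeR 4.0.16 in R 4.3.3 (TMM, filterByExpr, quasi-likelihood test, group as the only term; threshold 0.05), and the members were read from that fit. SE is the size of the log2 fold change divided by the root of F. DESeq2 1.42.0, limma 3.58.1, other scalings, filters and libraries left out were alternatives. Windows were assigned to GENCODE vM21 genes on the same strand, extended by 1000 bases. The strand of a window was inferred from the deposited order, which runs through the chromosomes once per strand, the first run read as minus. Sites held at least 5% of a gene's counts and were tested with diffSpliceDGE. Tests were tried on simulated data.

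Named members were the called ones, the most abundant and the uncalled one of smallest p in each class, those called by an alternative only, and those below the filter. The values of 1 called gene of the ephrin list are not reported here. The members, lists and named-gene rule were chosen with earlier results of these data known. Same-numbered libraries were taken as 1 mouse, from the design text; correlations of their deviations were 0.15, 0.27, 0.02 and 0.21, and in pair 3 neither library matched its partner best. The labels give no batch, and no libraries were identical.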

Additional observations from a re-analysis of the deposited data

Results flagged for a closer look

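Each group of 4 libraries of the 26 named members was searched for a library far from the others, 52 groups in all; chance gives about 1 in 20 such groups, and 2 were found. Efnb1 was lower in naive 1 than in the other naive libraries, with 22.6 CPM against 23.8 to 23.9 CPM, and the gap was most of a narrow range. Sema3f was higher in injury 3, with 12 CPM against 7.43 to 7.69 CPM in the other injury libraries. Without injury 3 the log2 fold change of Sema3f was -0.80.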

How the results depend on the processing

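Over the 26 named members, 412 values under up to 16 alternatives kept direction and side of the threshold in 359 cases; 42 lost and 5 gained a call, and 6 changed sign. Sema6a, Sema4f, Plxna4 and Sema3c were called in all of them. The number of members higher was 4 to 6 without single libraries and 7 with DESeq2, and that of members lower 0 to 6 without single libraries (0 without naive 4) and 3 without naive 2, injury 2 and injury 3 together. The fits with libraries left out hold fewer of them. Over all genes they called 742 lower without naive 4 and 993 lower without those 3 libraries, beside 1067 in the main fit. DESeq2 called 1666 of 15610 genes higher. The RLE and upper-quartile scalings, limma-voom, both other filters and the replicate block kept all 12 calls; with the mouse as a block 5 were higher and 7 lower, and no member changed its call. Log2 fold changes that changed sign were all of uncalled members: Ephb3 -0.014 without naive 4 and -0.082 without those 3 libraries, Sema3b -0.016 without injury 3 and -0.053 without the 3, and Sema3d 0.156 and Sema6c -0.017 without the 3. Without single libraries Ephb3 reached 0.123 and Sema3b 0.139 at most. The cause was not tested. For poly(A) sites limma-voom called 1 of 6 members, beside 464 of 2404 genes, and every other alternative called 0 members. Depth limits members under about 1 CPM.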
